A study of Mus musculus with 5 samples.

Results

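The transcriptome described here is that of control germinal center B cells, measured in the 3 WT libraries among the 5 libraries of the series. The cells carried Cg1-Cre and no floxed Relb or Nfkb2 allele. They were sorted from the spleens of 12-week-old mice, on day 7 of a response to injected sheep red blood cells, an antigen that drives strong germinal center reactions. The series title names the cells eGFP+, and the labels give the sorted cells as germinal center B cells and the material they came from as splenic mononuclear cells. Cg1-Cre places the recombinase under the IgG1 constant gene, so the WT cells share this allele with the other 2 libraries of the series, whose values were not used. The labels number the libraries 1 to 3 and do not say from which mouse each one came. The p-values below therefore set the differences between these libraries against counting error and do not measure how large the spread is. These differences may be partly technical.

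Germinal centers are sites in lymphoid follicles where B cells activated by antigen divide and are selected. In the dark zone cells replicate their DNA and mutate their antibody genes, and in the light zone they take up antigen and present peptides on MHC class II molecules to follicular helper T cells. The repressor BCL6 holds the program in place, and cells leave it as memory B cells or as plasma cells.

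Values are normalized counts, reads divided by a scaling factor for each library, and they are given below in the order WT replicates 1, 2 and 3. One read was worth 1.07, 1.03 and 0.961 normalized counts. Reads summed to 44885007, 33953377 and 57582464, of which mitochondrial ribosomal RNA took 62.4%, 51.6% and 70.9%, so that genes of the nuclear genome kept 15397317, 15460453 and 15477691 reads. A single predicted gene, Gm26924, held 12.0%, 14.1% and 4.74% of these nuclear reads. At least 1 read fell on 21727 genes in any library and on 15040 in all 3, and 13027 genes had a mean of at least 10 and entered the counts below.

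The libraries stood apart from each other in ways that touch the results. WT replicate 1 had Y-linked transcripts (Ddx3y at 1762, 0 and 0; Kdm5d at 1363, 0 and 0) and almost no Xist, the RNA that coats the inactive X chromosome, which was at 27.8, 53793 and 18151. The listed T cell genes summed to 2644, 4442 and 2400 normalized counts, the NK cell genes to 38.5, 457 and 5.77 and the macrophage genes to 2448, 1100 and 401. WT replicate 2 also had the highest values of 12 of 13 naive B cell genes. Over all 13027 genes the shares that were highest in WT replicates 1, 2 and 3 were 32.5%, 35.2% and 32.4%. The shares that were lowest were 29.8%, 35.2% and 34.9%, and in 31.6% the highest library was at least 2 times the lowest. Counts of list members below stand beside these shares, which are not matched to level. Among protein-coding genes outside the immunoglobulin loci the 2-fold share fell from 79.7% at a mean of 10 to 30 to 4.82% above 10000. WT replicate 3 had lower values of genes with long transcripts.

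All 5 genes used to mark the cells were well above the middle of the ranking in each library. Bcl6 was at 11338, 9681 and 11763 normalized counts. Gcsam, a signaling adaptor of germinal center B cells, was at 5774, 4794 and 5633, and Mybl1, a MYB family factor, at 22874, 15585 and 14084. The death receptor gene Fas was at 913, 708 and 902, and S1pr2, a receptor that keeps B cells in the follicle center, at 2060, 1448 and 2804. WT replicate 2 had the lowest value of 4 of the 5 genes, and Mybl1 was lowest in WT replicate 3.

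Levels can be set against each other between genes only after division by transcript length. Per kilobase of the longest annotated transcript, the mean was 3517 ± 944 (SD, n = 3) for Mybl1, 2778 ± 280 for Bcl6, 1629 ± 160 for Gcsam, 518 ± 71.1 for Fas and 329 ± 106 for S1pr2. Among 10989 protein-coding genes of the nuclear genome outside the immunoglobulin loci their ranks were 110, 173, 385, 1699 and 2659. The median of that ranking was 117, the 10th percentile 9.75, the 90th 756 and the 99th 3517 normalized counts per kilobase. None of the 5 had a highest library at least 2 times the lowest (ratios were taken on value + 1), a gap seen in 4119 of the 13027 genes (31.6%). In a chi-square test of their reads across the 3 libraries, with Benjamini-Hochberg adjustment, 5 of 5 differed beyond counting error, as did 10806 genes (83.0%) in all.

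**Figure D1:**
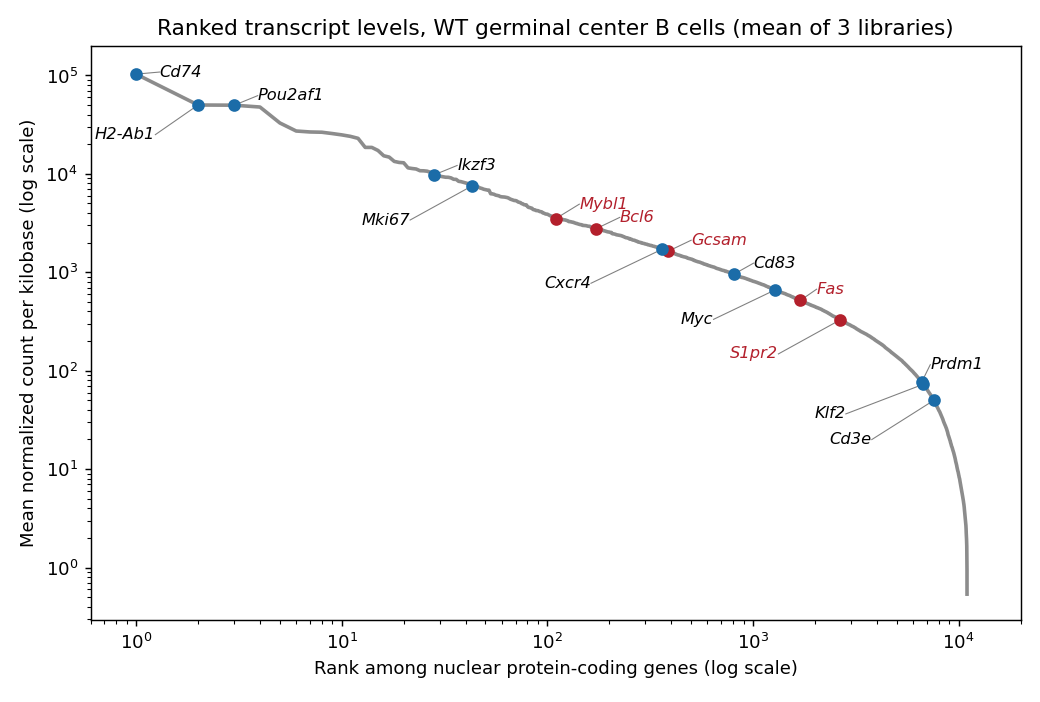
Mean normalized count per kilobase of the longest transcript (3 WT libraries, log scale) against the rank among 10989 nuclear protein-coding genes (log scale). Red points are the 5 marker genes, from Mybl1 at rank 110 to S1pr2 at rank 2659, and blue points are other named genes, from Cd74 at rank 1 down to Cd3e at rank 7564.

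Few genes carried much of the RNA. The 100 protein-coding genes of highest value held 19.4% of the summed normalized counts of the ranked genes, the first 1000 held 56.6%, and 745 genes were enough for 50% of it. The 15 highest per kilobase were, in order, Cd74, H2-Ab1, Pou2af1, Actb, B2m, Rpl4, Hist1h2bl, Eef1a1, Hist1h2ak, Cd24a, Atp5b, Arhgdib, Npm1, Hsp90ab1 and Pabpc1. They cover antigen presentation, a B cell coactivator, the cytoskeleton, translation, chromatin and folding. Per kilobase Cd74 reached 103190 ± 18775 (SD, n = 3), H2-Ab1 50104 ± 7192 and Pou2af1 49881 ± 6626, so that the last pair did not differ beyond their spread. Pou2af1, which encodes the OCT-binding coactivator OBF1 that germinal centers require, was at 129030, 109330 and 142930 normalized counts.

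MHC class II genes had a median level of 3104 normalized counts per kilobase, with Cd74 and H2-Ab1 among the 15 highest genes. Of 12 measured genes 10 were lowest in WT replicate 1, where 29.8% of all genes were lowest. The count 2-fold apart was 0 of 12, against 31.6% of all genes. Cd74, the invariant chain that guides class II molecules through the cell, was at 118330, 146940 and 171220 normalized counts. H2-Ab1 was at 56261, 55147 and 70770, H2-Aa at 40121, 51541 and 56004, and H2-Eb1 at 9848, 11023 and 13419. Genes of the accessory chains and of lysosomal processing followed: the peptide editor inhibitor H2-Ob was at 7402, 10150 and 8625 and the thiol reductase Ifi30 at 2612, 2516 and 4327. H2-DMb1, one of the genes of the peptide editor, had the largest ratio of the list, with 314, 594 and 435.

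Class II promoters are known for a conserved upstream module that ends in an inverted CCAAT box. RefSeq promoters (assembly GRCm38.p6, from 250 bases before to 50 after the start) were found for 9 of the 12 genes, and CCAAT on either strand stood in 7 of them (77.8%), against 41.1% of all 27025 genes with a promoter in the table. The 150 bases before the start of H2-Aa (chr17:34287824-34287973, minus strand) are shown because the box lies alone in them, its inverted form ATTGG in capitals 48 bases before the start.
H2-Aa: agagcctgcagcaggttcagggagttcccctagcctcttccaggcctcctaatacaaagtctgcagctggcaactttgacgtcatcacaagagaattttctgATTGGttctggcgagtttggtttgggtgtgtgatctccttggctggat

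Genes that define the B lineage were expressed at high levels. All 19 measured members had a mean above 100, with a median level of 2465 normalized counts per kilobase. Ms4a1, which encodes CD20, was at 29490, 24245 and 35286, and the antigen receptor partners Cd79a and Cd79b were at 11264, 14472 and 14674 and at 8439, 10678 and 12543. Cd22, an inhibitory coreceptor, was at 13789, 12740 and 13373, within 1.2-fold over the libraries like 1655 of the 13027 genes (12.7%). Only Fcer2a, Ly6d and Pax5 of this list were 2-fold apart, and 1 was without WT replicate 2. The median ratio of the 19 was 1.45. Protein-coding genes outside the immunoglobulin loci had a median of 1.36 at a mean of 1000 to 3000 normalized counts. It was 1.404 at 3000 to 10000 and 1.396 above 10000. Fcer2a, the CD23 gene that naive follicular B cells express, was at 2235, 8249 and 6095, low in WT replicate 1, while Ly6d was at 554, 1147 and 382 with WT replicate 2 highest. Pax5, the lineage commitment factor, was at 4140, 5137 and 2432.

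Transcription factors of B cells ranged over 3 orders of magnitude per kilobase. After Pou2af1 came Ikzf3, the Aiolos gene, at 58872, 41659 and 34010 normalized counts, and then Spib at 15184, 15402 and 18303 and Ikzf1, the Ikaros gene, at 29147, 25101 and 26039. Irf8, which germinal center B cells express strongly, was at 10528, 7026 and 11290. Bach2, a repressor of plasma cell differentiation, was at 16566, 16775 and 11155, and Foxo1, a factor of the dark zone, at 7528, 7811 and 7193. The first 4 of these and Irf8 were among the 200 highest genes per kilobase. At the low end Tbx21, the T-bet gene, was at 145, 30.9 and 42.3, higher in WT replicate 1 than in both others. Of 25 tested factors 5 were 2-fold apart (31.6% of all genes), and 2 were when WT replicate 1 or WT replicate 3 was left out. The factors with a transcript over 5 kb, 11 in number, had a median log2 difference from the 3-library mean of −0.39 in WT replicate 3, and the 14 shorter ones one of 0.12.

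Of 28 germinal center program genes 26 had a mean above 100, and their lowest values were most often in WT replicate 2. Of the 27 tested genes 15 were lowest there, against 35.2% of all genes, and 7 were 2-fold apart, against 31.6%. The 31.6% includes genes of low level. Among protein-coding genes outside the immunoglobulin loci it was 26.8% at a mean of 100 to 300 and 7.30% at 1000 to 3000. Tnfrsf13c, the BAFF receptor gene, was at 16002, 14900 and 16238, a narrow range. Rgs13, a regulator of chemokine receptor signaling, was at 8381, 3777 and 4727, with WT replicate 1 above the others. Klhl6, an adaptor of a ubiquitin ligase needed for germinal centers, was at 11292, 5607 and 8306, and Basp1, a membrane-bound protein, at 4370, 1787 and 3653. Both were lowest in WT replicate 2. The polycomb methyltransferase gene Ezh2 was closer, at 5448, 4326 and 5687. Of genes that germinal center B cells are known to lower, Gpr183, a guidance receptor for the outer follicle, was at 541, 1520 and 530 and Cd38 at 1654, 3171 and 1741, both highest in WT replicate 2. Without WT replicate 2 the count of program genes 2-fold apart was 0 of 27, and without WT replicate 3 it was 4.

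As lists, dark zone genes had the higher levels and light zone genes the lower ones. The median was 1081 normalized counts per kilobase over 16 dark zone genes and 308 over 25 light zone genes, a description of the chosen members with no test. Cxcr4, the chemokine receptor of the dark zone, was at 3052, 2416 and 3836 normalized counts. Of the dark zone genes 10 were lowest in WT replicate 2 (35.2% of all genes), and 2 were 2-fold apart (31.6%). These were Mki67 and Rgs13, and the count was 0 without WT replicate 1 and 1 without either of the others.

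Among light zone genes, Cxcr5, the receptor for follicular chemokine, was at 2523, 2935 and 3455 normalized counts, and the activation marker Cd83 at 1917, 2713 and 2448. Cd86, a costimulatory ligand for T cells, was at 1886, 1912 and 3116. Myc, which marks cells selected to divide again, was at 1709, 1412 and 1542, and Egr1, an immediate early gene, at 1188, 1377 and 1269. In this list 5 genes were 2-fold apart (31.6% of all genes), 1 without WT replicate 1 and 3 without WT replicate 3. Ccl22, a chemokine that attracts T cells, had the largest ratio, with 37.5, 229 and 115, and Ccnd2, a D-type cyclin, was at 973, 717 and 300. The first was low in WT replicate 1 and the second in WT replicate 3.

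Genes of somatic hypermutation and class switching were expressed in each library, 26 of 27 with a mean above 100. Parp1, a sensor of DNA breaks, was at 10388, 9003 and 13641 normalized counts, and Polh, the error-prone polymerase that leaves mutations at A and T, at 5036, 3074 and 5376. The mismatch sensor Msh6 was at 4616, 3797 and 4506. Hmces, a shield of abasic sites, was at 1915, 1579 and 2133, and the glycosylase gene Neil1 at 1371, 1164 and 1776. WT replicate 2 was lowest for 19 of the 27 tested genes and highest for 1, against 35.2% and 35.2% of all genes. Ung, the glycosylase that removes uracil from DNA, was lower, at 561, 465 and 436. Only Rev3l and Rif1 were 2-fold apart. Rev3l, a translesion polymerase, was at 9160, 6398 and 3859 and Rif1, a protector of DNA ends, at 5913, 4338 and 2953, both lowest in WT replicate 3. Without WT replicate 1 or WT replicate 3 the count was 0 of 27.

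Proliferation genes were prominent in each library, and WT replicate 2 had the lowest values of most. Of 37 G1 and S phase genes 29 were lowest in WT replicate 2 (35.2% of all genes) and 25 highest in WT replicate 3 (32.4%). None was 2-fold apart (31.6% of all genes, and 7.30% of protein-coding genes outside the immunoglobulin loci with a mean of 1000 to 3000). Pcna, the sliding clamp, was at 5529, 4318 and 5648 normalized counts, and Rrm2, a ribonucleotide reductase subunit, at 5827, 3669 and 6307. The replicative helicase genes Mcm4, Mcm6 and Mcm3 were at 6028, 4489 and 6718, at 6444, 5122 and 8023 and at 4901, 3435 and 6271. Each of these genes was lowest in WT replicate 2 and highest in WT replicate 3. The median log2 difference of the list from the 3-library mean was 0.05, −0.25 and 0.19.

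Of 35 G2 and M phase genes 32 were lowest in WT replicate 2 and 0 highest there, against 35.2% and 35.2% of all genes. Top2a, the topoisomerase of chromosome condensation, was at 37157, 23978 and 36041 normalized counts and Smc4, a condensin subunit, at 28545, 19904 and 20983. The cyclins Ccna2 and Ccnb2 were at 5908, 4191 and 7031 and at 3120, 2390 and 3031, and Kif11, a motor of the mitotic spindle, at 10209, 7667 and 9485. WT replicate 2 was the low library for each of these 5 genes. Only Mki67, Cenpf and Cdc25b were 2-fold apart. Cdc25b, a phosphatase that activates mitotic kinase, was at 885, 465 and 1446. Mki67, which encodes the Ki-67 antigen, was at 120600, 69174 and 38036 and Cenpf, a kinetochore protein, at 10171, 6305 and 3363, so that these were lowest in WT replicate 3. Without WT replicate 1 the count was 1 and without WT replicate 3 it was 0. The 4 list members with a transcript over 5 kb, among them Mki67, had a median log2 difference of 0.65, −0.05 and −0.63, and the 31 shorter ones of 0.12, −0.30 and 0.24. The part of transcript length in the low Mki67 value of WT replicate 3 was not tested.

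WT replicate 2 was at the same time the library with the most naive B cell, T cell and NK cell transcripts, as given further on. In bulk RNA, fewer dividing cells and less of these RNAs per cell cannot be told apart, and the part of other cells in the lower proliferation values was not tested.

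Promoters of G2 and M phase genes are known for CCAAT boxes set about 3 helical turns apart and for a TTTGAA element near the start, and S phase promoters for E2F sites such as TTTCGCGC and TTTGGCGC. Both strands were searched in the RefSeq promoters, which were found for 29 of 35 and for 28 of 37 genes. CCAAT stood in promoters of 22 of 29 G2 and M phase genes (75.9%, against 41.1% of all genes). TTTGAA stood in those of 21 (72.4%, against 20.2%), and both in those of 18 (62.1%, against 7.97%). At least 1 of the E2F forms stood in 8 of the 28 S phase genes (28.6%, against 0.929% of all genes), and the forms can overlap each other. Shown are 3 promoters of genes that were low in WT replicate 2, each as the 150 bases before the start. Capitals mark, on either strand, CCAAT (or ATTGG) and TTTGAA (or TTCAAA) in Ccnb2 and Top2a, and the E2F forms alone in Mcm6. They lie on the minus strand of GRCm38.p6, Ccnb2 at chr9:70421555-70421704, Top2a at chr11:99024190-99024339 and Mcm6 at chr1:128359706-128359855.
Ccnb2: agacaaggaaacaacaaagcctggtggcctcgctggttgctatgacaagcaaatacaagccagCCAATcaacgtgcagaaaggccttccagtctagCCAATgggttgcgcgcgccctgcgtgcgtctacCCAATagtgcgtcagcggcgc
Top2a: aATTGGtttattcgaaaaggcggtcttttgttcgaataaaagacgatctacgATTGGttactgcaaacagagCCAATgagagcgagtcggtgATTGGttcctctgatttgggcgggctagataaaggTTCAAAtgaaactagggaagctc
Mcm6: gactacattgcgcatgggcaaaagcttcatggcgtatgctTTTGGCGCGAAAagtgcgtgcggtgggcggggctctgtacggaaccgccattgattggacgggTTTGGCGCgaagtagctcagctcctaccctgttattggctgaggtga
The CCAAT copies of Ccnb2 began 87, 54 and 21 bases before the start, 33 bases apart each time. Its TTTGAA copies, 167 bases before and 4 bases after the start, lie outside the stretch shown. So do matches of Top2a that begin 227, 189 and 179 bases before its start. In Mcm6 the run of capitals 110 bases before the start holds TTTGGCGC and, overlapping it on the other strand, TTTCGCGC. These matches describe letters only and say nothing of binding in these cells.

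Genes that control entry into the cycle were lower and less even. Cdk4 was at 1711, 1380 and 2447 normalized counts, and E2f2, an activator of S phase genes, at 3865, 3242 and 4439. Among D-type cyclins Ccnd3, on which germinal center B cells depend, was at 1703, 1264 and 2561, and Ccnd1 was at 43.9, 123 and 27.9. Ccnd3 was lowest and Ccnd1 highest in WT replicate 2. Cdkn1b, the p27 inhibitor of resting cells, was at 377, 1211 and 416, highest in the same library. Of 16 tested genes of this list 7 were 2-fold apart (31.6% of all genes), 2 without WT replicate 2 and 3 without WT replicate 3.

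Of 24 genes of antigen receptor signaling 2 were 2-fold apart (31.6% of all genes), with a median ratio of highest to lowest of 1.42. Protein-coding genes outside the immunoglobulin loci with a mean of 3000 to 10000 had a median of 1.4. The kinase genes Syk and Lyn were at 13627, 12416 and 13134 and at 6850, 8221 and 8252 normalized counts. Rasgrp3, an exchange factor for Ras, was at 18483, 13495 and 17467, and the tetraspanin gene Cd81 at 3781, 3608 and 6180. Ptpn22, a phosphatase of receptor signaling, was among those 2-fold apart, at 334, 555 and 237. It was lowest in WT replicate 3, without which the count was 0. The count was 1 without either of the other libraries.

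Survival genes were headed by Mcl1, the BCL2 relative that germinal center B cells depend on, at 14493, 13825 and 12257 normalized counts. Bcl2, which BCL6 is known to repress, was far lower per kilobase, at 77.5 against 3957, and its normalized counts were 460, 1027 and 185 with WT replicate 2 highest. The death genes Casp8, Bak1 and Bcl2l11 (BIM) were at 2774, 2622 and 3420, at 1446, 1107 and 2002 and at 1527, 1782 and 2350. Of 17 tested genes 3 were 2-fold apart (31.6% of all genes), and 1 without WT replicate 1 or WT replicate 2.

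None of 42 ribosomal protein genes was 2-fold apart and 16 were within 1.2-fold, against 31.6% and 12.7% of all genes. Their median ratio was 1.26. Among protein-coding genes outside the immunoglobulin loci with a mean of 1000 to 3000 the shares were 7.30% and 21.6%. Rpl4 was at 42476, 33472 and 49846 normalized counts. Folding genes of the endoplasmic reticulum, 18 in number, also had 0 that were 2-fold apart, but 0 were within 1.2-fold. Of these, 18 differed beyond counting error (83.0% of all genes) and 15 were lowest in WT replicate 2 (35.2%). The 83.0% includes genes of low level. Among protein-coding genes outside the immunoglobulin loci it was 94.88% at a mean of 1000 to 3000 and 98.96% at 3000 to 10000. The 18 of 18 is therefore not read as an excess. Hsp90b1 was at 17230, 11723 and 12810, the disulfide isomerase gene Pdia3 at 11337, 7505 and 10016 and the chaperone gene Hspa5 at 11170, 8046 and 13599. Replication-dependent histone genes were highest in WT replicate 3 in 15 of 20 (32.4% of all genes), among them the linker histone gene Hist1h1b at 4329, 3544 and 5234. Histone RNAs of this kind lack poly(A) tails. Both families have members or pseudogenes of nearly the same sequence, so that single members are uncertain.

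**Figure D2:**
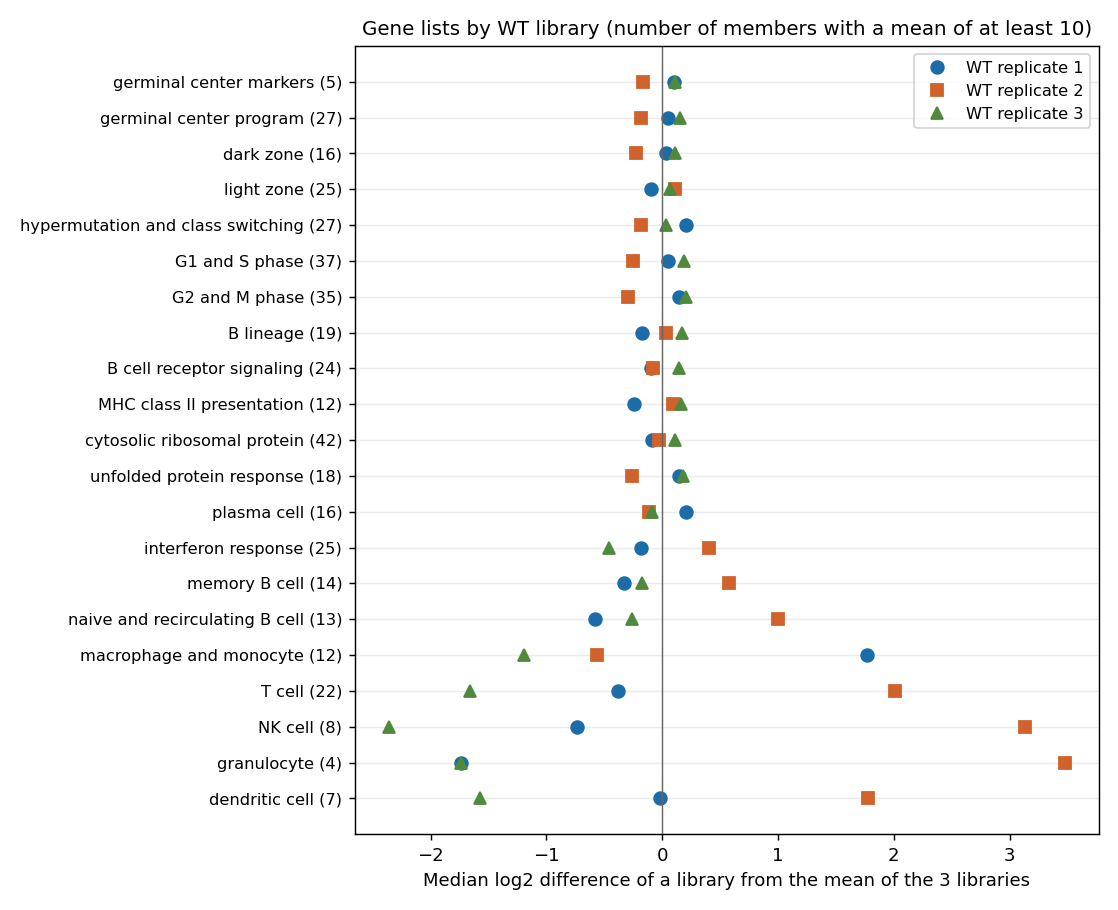
Median log2 difference of each WT library from the mean of the 3 libraries (x axis), for 21 gene lists (y axis, with the number of members whose mean is at least 10). The upper 13 lists, from the germinal center markers to the plasma cell genes, lie between −0.29 and 0.21, and the lists of naive B cells and of other cells reach from 1.0 (naive B cells, WT replicate 2) to 3.48 (granulocytes, WT replicate 2). Members with a mean under 10 are left out, so the lists of other cells hold mainly genes that were high in some library.

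Immunoglobulin genes held 1.04%, 0.959% and 1.27% of nuclear reads. Ighm was the main heavy chain constant gene, at 77870, 87830 and 112000 normalized counts, or 70.3%, 88.1% and 85.3% of the heavy chain constant reads of the 7 genes measured (Ighd was not analysed here). The switched classes made up the other 29.7%, 11.9% and 14.7%, a mean of 18.8% ± 9.54 (SD, n = 3). The exact binomial 95% intervals, which cover counting error only, were 70.1 to 70.6, 87.9 to 88.3 and 85.1 to 85.5 for Ighm. The gap between WT replicate 1 and the others is therefore larger than counting error.

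The order of the switched classes differed between libraries. Ighg2c, whose class follows interferon-type signals, took 10.5%, 0.925% and 0.919% of heavy chain constant reads, and Ighg2b 5.74%, 1.84% and 1.58%. Igha, the mucosal class, took 1.42%, 0.164% and 0.104%. Ighg1, the gene that also carries the Cre cassette, went the other way, with 1.57%, 4.05% and 6.27%. Within the switched reads Ighg1 held 5.29%, 34% and 42.6% and Ighg2c 35.3%, 7.77% and 6.24%. Ighg3 kept a similar part of them, at 34.2%, 40.2% and 38.8%. These are shares of reads, not divided by transcript length. Per kilobase Ighg2c was at 9539 and Ighg3 at 4650 in WT replicate 1. As shares of heavy chain constant reads, all 6 switched classes except Ighg1 were thus highest in WT replicate 1, Ighg3 with 10.1%, 4.79% and 5.72% and Ighe with 0.333%, 0.145% and 0.132%. Of the 7 genes 6 were 2-fold apart (31.6% of all genes), and 1 without WT replicate 1, where 2 libraries were compared (20.7%). In that library Prdm1, the plasma cell regulator, and Tbx21, which is known to promote switching to IgG2 classes, were highest as well, and whether they belong to the same cells was not tested. Transcripts of switched constant genes include sterile ones that encode no antibody, and the gene counts do not separate these.

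Heavy chain V genes were used unequally and differently in the libraries. Reads on them numbered 3574, 4737 and 5613. Of 59 tested, 39 were 2-fold apart, against 31.6% of all genes. The median ratio was 2.72, at levels where other genes also have large ratios. The 10 most used genes of each library held 52.8%, 50.6% and 57.2% of its heavy V reads. Ighv5-6 took 3.27%, 9.5% and 10.1%, Ighv2-9 5.88%, 4.58% and 11.2%, and Ighv2-5 0.811%, 6.90% and 5.99%. Ighv1-9 took nearly the same part in each library, 4.81%, 4.77% and 4.60%. Ighv2-2 (8.45%, 6.29% and 4.19%) and Ighv3-1 (7.44%, 2.45% and 3.17%) were used most in WT replicate 1. Heavy J genes differed too: Ighj4 held 50.5%, 35.2% and 41.7% of heavy J reads and Ighj1 7.97%, 25.8% and 12.1%. V genes have near-identical relatives and mutated reads align less well, so single genes are uncertain.

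Among light chains the gaps were smaller than among heavy V genes. Of 75 tested kappa V genes 28 were 2-fold apart, against 31.6% of all genes, and the median ratio was 1.76, against 1.59. Kappa V genes also had more reads than heavy V genes, 8647, 8114 and 9561, and the part of level in the smaller gaps was not tested. Igkv6-15 held 9.18%, 7.05% and 7.90% of kappa V reads, Igkv1-135 8.78%, 7.04% and 5.38%, and Igkv6-17 6.00%, 7.83% and 6.77%. Next came Igkv1-110 (5.08%, 7.51% and 7.51%), Igkv17-127 (2.97%, 4.71% and 5.23%) and Igkv1-117 (2.51%, 4.47% and 5.65%). Among kappa J genes, Igkj5 held 32.8%, 31.3% and 33.3% of kappa J reads and Igkj1 27.8%, 29.5% and 28.3%. Igkj3, the least used, held 1.4%, 2.45% and 1.45%, with WT replicate 2 above the others beyond counting error. Igkc was at 35717, 27827 and 32541 normalized counts, and Iglc2, the lambda constant gene measured, at 1336, 1574 and 864.

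**Figure D3:**
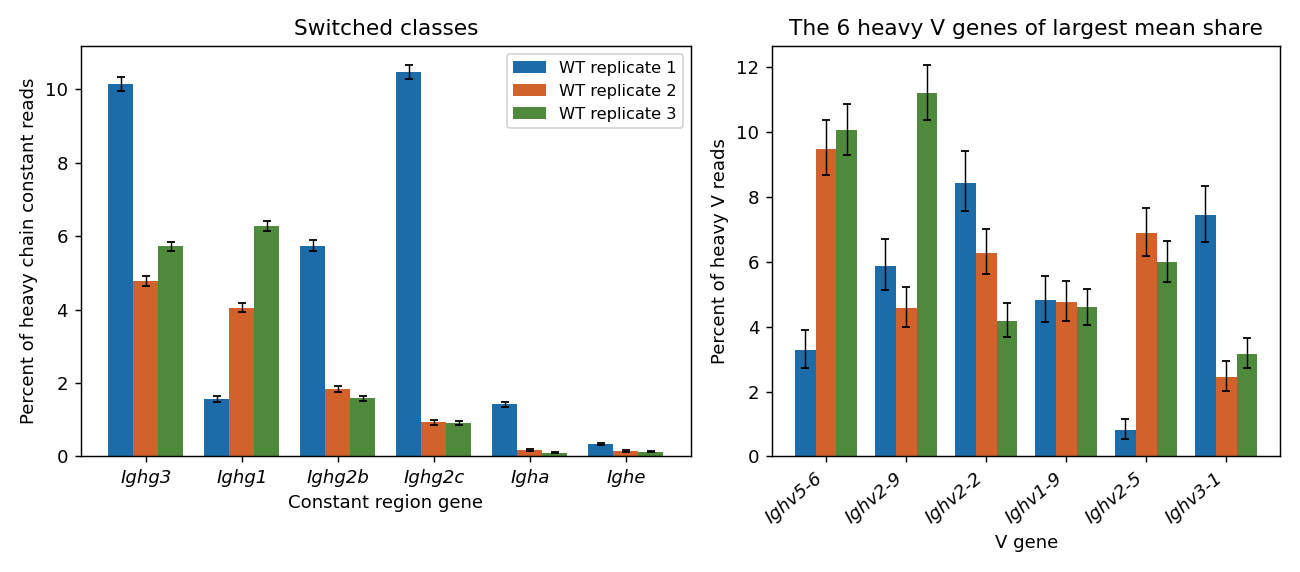
Left, percent of heavy chain constant reads on 6 switched classes in each WT library, and right, percent of heavy V reads on the 6 V genes of largest mean share, with exact binomial 95% intervals that cover counting error only. WT replicate 1 has 10.5% Ighg2c against 0.925% and 0.919%, and 0.811% Ighv2-5 against 6.90% and 5.99%.

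Jchain, the joining chain of secreted antibody, was at 5365, 3289 and 4921 normalized counts, and Xbp1, the secretory regulator, at 2100, 1911 and 2669. Prdm1 was at 926, 127 and 162, and Sdc1, the CD138 gene that defines plasma cells, was at 2.14, 31.0 and 7.69, close to the level of single reads in WT replicate 1. Tnfrsf17, the BCMA gene of plasma cells, was at 6.42, 0 and 0. The library with the most Prdm1 thus had the least Sdc1. Of 16 tested plasma cell genes 4 were 2-fold apart (31.6% of all genes), and 2 without WT replicate 2. Those of 18 listed genes that did not reach a mean of 10 were Ly6k and Tnfrsf17.

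Naive and recirculating B cell genes were the B cell list with the largest gaps. In WT replicate 2 their median log2 difference from the 3-library mean was 1.0, and in the others −0.58 and −0.26. Klf2, a factor of resting lymphocytes, was at 24.6, 306 and 72.1 normalized counts, and Klf3 at 408, 1373 and 178. The chromatin organizer Satb1 was at 864, 4014 and 1362 and the quiescence gene Btg1 at 2012, 4447 and 2293. Il4ra, the interleukin 4 receptor gene, was the one member not highest in WT replicate 2, at 1228, 1907 and 2951. Of 13 genes 12 were 2-fold apart (31.6% of all genes), and 4 without WT replicate 2. T cells express several of these genes too, Klf2, Satb1 and Btg1 among them.

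Of 14 memory B cell genes 9 were highest in WT replicate 2, and 8 were 2-fold apart (3 without that library, 5 without WT replicate 1). Over all genes these shares were 35.2% and 31.6%. Itga4, an integrin chain, was at 2869, 6054 and 1760 normalized counts, Ccr6, a chemokine receptor, at 244, 625 and 375, and Mndal, an interferon-inducible gene, at 1624, 4094 and 1615. Cd80 went otherwise, with 106, 16.5 and 26.9, and Cd44 and Vim, at 2031, 1888 and 2109 and at 2378, 2814 and 3931, had smaller gaps. Interferon response genes were highest in WT replicate 2 in 17 of 25 and 2-fold apart in 15 (8 without that library), against 35.2% and 31.6% of all genes. The sensor gene Ddx58 was at 543, 1189 and 370 and Rsad2, an antiviral enzyme, at 5.35, 35.1 and 1.92.

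Markers of other cells made up a small part of the RNA and differed between the libraries. Many of these genes reached a mean of 10 only through the library in which they were high, so they are given by their values and by sums over each whole list. Cd3e was at 10.7, 363 and 7.69 normalized counts, Thy1 at 2.14, 253 and 7.69 and Cd8b1 at 4.28, 253 and 0. The summed level of the 24 T cell genes was 1737, 2647 and 1686 per kilobase, most of it from Cd2 and Lck. These were high in every library, Cd2 at 1342, 1391 and 1468 and Lck at 1027, 789 and 814, so that their level did not follow Cd3e. Of follicular helper T cell genes, Cd40lg was at 3.21, 38.2 and 17.3 and the helper cytokine Il21 at 0, 1.03 and 0, whereas Tox2, at 1035, 177 and 226, was highest in WT replicate 1.

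Of 11 NK cell genes 7, 11 and 3 had reads in WT replicates 1, 2 and 3, and of 11 granulocyte genes 3, 11 and 2. The 11 NK cell genes summed to 18.1, 327 and 3.01 per kilobase, and the cytotoxic granule gene Nkg7 was at 0, 90.8 and 0 normalized counts. The 11 granulocyte genes summed to 5.14, 202 and 2.68 per kilobase, with S100a8 at 0, 37.1 and 0. Dendritic cell genes followed the same library, Xcr1 of cross-presenting dendritic cells being at 0, 97.0 and 3.84 and Siglech of plasmacytoid ones at 0, 66.0 and 0, but Flt3 was at 678, 744 and 644 in all. Macrophage genes had their highest sum in WT replicate 1, with summed levels amounting to 1188, 616 and 233 per kilobase over 15 genes. Vcam1 was at 610, 20.6 and 39.4, the complement gene C1qb at 135, 2.06 and 3.84 and Mertk, a receptor for dying cells, at 92.1, 0 and 5.77. Lyz2 was at 510, 423 and 44.2. The 8 erythroid genes summed to 15.9, 8.45 and 15.6 per kilobase, and 10 stromal and endothelial genes to 792, 1251 and 969. Nearly all of the latter came from Cr1l, at 1810, 1892 and 2209 normalized counts, and Pecam1, at 1081, 2584 and 1342, while the stromal genes Dcn, Pdpn and Col3a1 were listed at 0 in all 3. The part of these other cells in the differences between libraries was not tested.

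**Figure D4:**
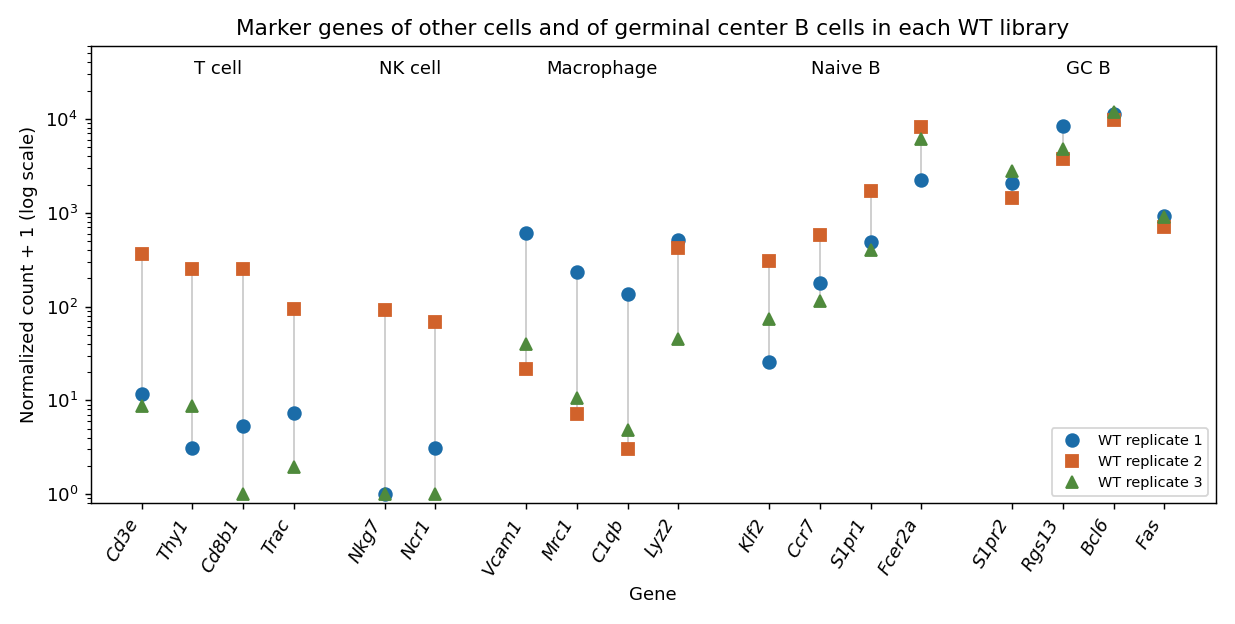
Normalized count + 1 (log scale) of 18 genes in each WT library, grouped by the cells they mark. T and NK cell genes are high in WT replicate 2, Vcam1, Mrc1 and C1qb in WT replicate 1, and Bcl6 and Fas lie close together in all 3.

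Across all genes the libraries ranked transcripts alike, and most differences were small. Over the 13027 genes, which are not independent replicates and share each library's processing, Spearman's rho was 0.955 between WT replicates 1 and 2, 0.967 between 1 and 3, and 0.956 between 2 and 3. The median ratio of highest to lowest was 1.59. Among protein-coding genes outside the immunoglobulin loci it fell from 3.83 at a mean of 10 to 30 to 1.36 at 1000 to 3000. It did not fall further, being 1.404 at 3000 to 10000 and 1.396 above 10000. The common biological coefficient of variation from edgeR, the spread left after counting error, was 40.0%, and 33.9% without WT replicate 2. For the 8218 protein-coding genes with a mean of at least 100 the median of the gene-wise values was 25.1%.

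The 12 genes with the lowest gene-wise values, all close to 18.9%, had means between 1591 and 2302 normalized counts, above the median of 268 over all genes. Acbd5, a peroxisomal membrane protein gene, was at 1638, 1600 and 1606 normalized counts, where the plain SD over the mean, a different quantity, was 1.26%. Tfrc, the transferrin receptor gene, was at 2104, 2116 and 2013 and Rpn2, of the oligosaccharide transferase, at 1582, 1628 and 1562. Mtmr2 and Ociad1 were at 2229, 2210 and 2141 and at 1901, 1880 and 1831. The other 7 of the 12 lowest were Dnajc7, Hp1bp3, Zc3h14, Snx25, Depdc5, Fam76b and Tor1aip2. In the chi-square test 1 of these 12 differed beyond counting error, a low count that follows from picking them by the spread of the same reads.

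The 12 most variable protein-coding genes with a mean of at least 100 were the Y-linked Ddx3y, Kdm5d, Uty and Eif2s3y, then Cd3e, Nrep, Vcam1, Tnik, Lifr, Zbtb10, Tcf7 and Atp1b1. Nrep was at 460, 10.3 and 17.3, with WT replicate 1 high like Vcam1 and the macrophage genes Mrc1 (232, 6.19 and 9.61) and Slc40a1 (152, 2.06 and 7.69). Tnik was at 66.4, 521 and 20.2 and Lifr at 15, 429 and 116, with WT replicate 2 high. Tcf7, a T cell factor, was at 56.7, 243 and 13.5. All 12 were thus highest in WT replicate 1 or 2.

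Genes that set 1 library above both others by at least 2-fold numbered 448 in WT replicate 1 (3.44% of those tested), 930 in WT replicate 2 (7.14%) and 130 in WT replicate 3 (0.998%). Lrrc32, the GARP gene that anchors latent TGF-beta, was the clearest for WT replicate 3, at 74.9, 195 and 821. Dusp3 was at 7.49, 36.1 and 107 and Dctd, a nucleotide deaminase, at 35.3, 40.2 and 152. Lower than both others by at least 2-fold were 387 genes in WT replicate 1 (2.97%), 445 in WT replicate 2 (3.42%) and 904 in WT replicate 3 (6.94%). The interferon-induced chemokine Cxcl9 was at 106, 120 and 0 and Maml3, a Notch coactivator, at 64.2, 190 and 1.92. Hmga1b was at 17.1, 281 and 288, low only in WT replicate 1 among the 3, and Tm4sf5 was at 137, 0 and 46.1, with no read in WT replicate 2.

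Transcript length moved with the library. Among the longest 10% of protein-coding genes, with a median of 8.28 kb, the median log2 difference from the 3-library mean was 0.15, 0.13 and −0.31. Among the shortest 10% it was −0.00, −0.06 and 0.09. WT replicate 3 therefore had lower values of long genes relative to short ones than the other libraries, and Mki67, Rev3l, Rif1 and Cenpf all have long transcripts and were lowest there. Its share of mitochondrial ribosomal RNA was also the highest of the 3, and a link between these values was not tested.

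**Figure D5:**
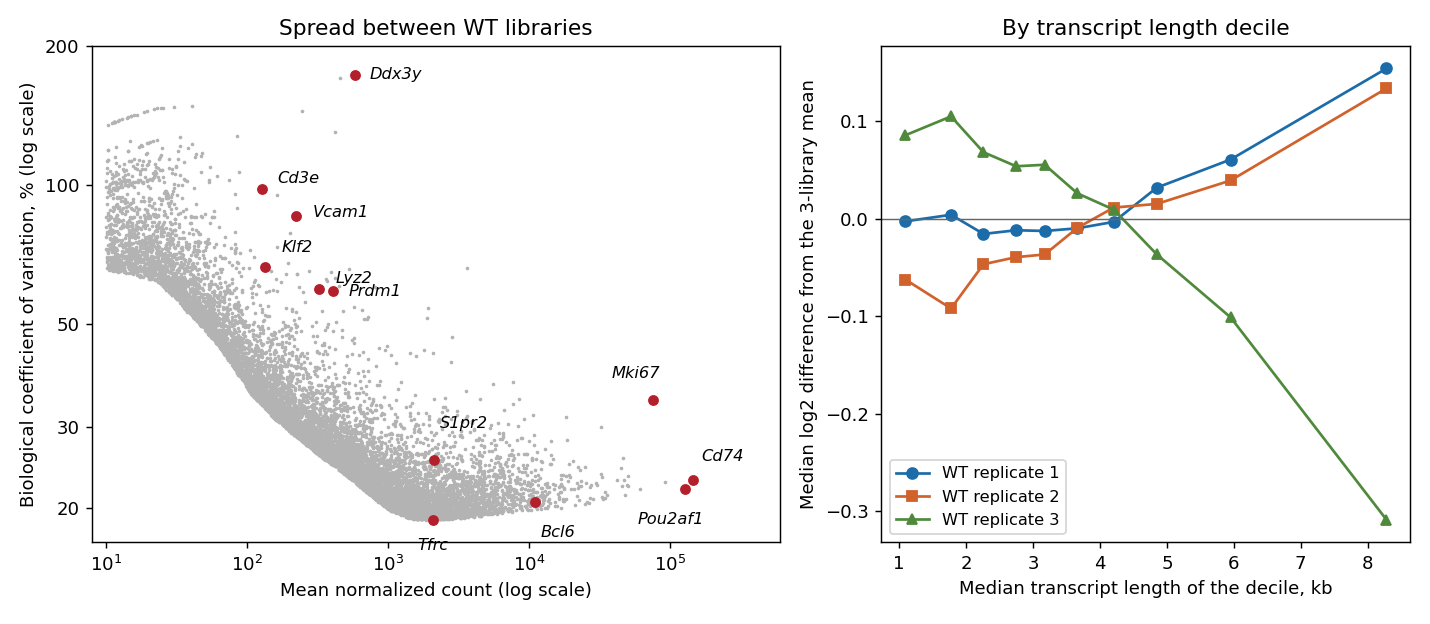
Left, biological coefficient of variation of each gene (percent, log scale) against its mean normalized count (log scale), with named genes in red. Right, median log2 difference of each WT library from the 3-library mean for protein-coding genes in 10 groups of transcript length, where WT replicate 3 ends at −0.31 in the longest group and the others at 0.15 and 0.13.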

How the data were processed

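The authors deposited 1 table of 38924 genes whose values are a normalized signal for each library. Per the submitters' processing notes, build mm9 was used with Cufflinks 2.0.2, TopHat2 2.0.4 and CASAVA 1.8.2. Per the labels' protocols, RNA was amplified with the NuGEN Ovation RNA-Seq System V2 before sequencing. Not given in the sources used here were the counting tool, the annotation and the use of strand. In each WT library 100% of the values were whole multiples of 1 step, within 0.01 of a whole number, so the deposited signal is reads divided by a scaling factor, and whole reads were recovered. The 2 DKO columns were not read.

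Of the names, 37186 matched GENCODE M21 (1707 through a synonym), which gave gene type and transcript length. The 1738 others had no length. Where a name was repeated, the row with at least 95% of the summed value was kept.

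Genes with a mean of at least 10 were tested (13027). Reads in the 3 WT libraries were compared with a chi-square test against the deposited scaling, adjusted by Benjamini-Hochberg and called under 0.05, in scipy 1.17.1. This compares libraries, not conditions, and the function was checked on simulated data. Ratios of highest to lowest use value + 1. Dispersion came from edgeR 4.0.16 in R 4.3.3, with TMM scaling. Its gene-wise values are drawn toward the trend with level, so their lowest values lie close together. Intervals of shares are exact binomial at 95% and cover counting error only.

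The genes, the 35 lists and their members were chosen with earlier results of these data known. Named were the 5 markers, the 15 highest genes, per list up to 6 by level and 2 by ratio, the constant genes, the 6 heavy and 6 light V genes most used, 12 genes at each end of the dispersion and, per library, 8 high and 4 low genes. Bach2, Foxo1, Ezh2, Pax5, Ung, Cenpf, Cdkn1b, Il21, Tnfrsf17, Ly6k, Mef2b, Fen1, the J genes and the CCAAT search in class II promoters fall outside this rule: they were picked once their values had been seen. Alternatives were other scalings (TMM, DESeq2 1.42.0 size factors, total nuclear reads), minimum values, pseudocounts, gene types, lengths and the removal of each library. Values of some genes that the rule names are not reported here.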

Additional observations from a re-analysis of the deposited data

How the results depend on the processing

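Most counts were close to their main values. Genes differing beyond counting error stayed within 1.5 times of 10806 under every scaling, minimum and threshold tried, and ran from 7788 to 8668 when 1 library was left out. The number of genes at least 2-fold apart (4119) moved with the minimum value, to 1951 at 50, to 8924 at 1 and to 11576 with none beyond 1 read. With 1 library left out, which compares 2 libraries in place of 3, it ran from 2176 to 2691, and the number within 1.2-fold (1655) ran from 4071 to 4783. Without division by length, 60 of the 100 highest genes remained, and 89 with the summed length of all exons. The coefficient of variation ran from 33.9% to 41.8% with 1 library left out. The share of switched classes ran from 13.3% without WT replicate 1 to 22.2% without WT replicate 2. With values per kilobase it was 16.3%, against 18.8% in reads. Leaving out each library for the lists was chosen after seeing the data. No paired analysis was possible because the libraries form a single group. Genes with a mean under about 100 rest on few reads and had wider gaps. Of protein-coding genes with a mean between 10 and 30, 79.7% were 2-fold apart, against 4.82% of those above 10000. In the lower group 74.5% differed beyond counting error, and the part of depth in these gaps was not tested.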

Other observations

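Among mitochondrial messenger RNAs, mt-Co1 was at 873970, 570240 and 740980 normalized counts in WT replicates 1, 2 and 3, and mt-Cytb at 224680, 133770 and 171690, while mt-Co2 was at 16.1, 8.25 and 23.1 and mt-Atp6 at 48.2, 25.8 and 81.7. The gap between genes of the same genome was present in all 3 libraries.

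Lambda V genes held 22.3%, 24.4% and 19.4% of light chain V reads, but Iglc2 held 3.61%, 5.36% and 2.59% of light chain constant reads. The other lambda constant genes were not analysed here. Among lambda V reads Iglv1 held 76.0%, 70.4% and 78.1%.

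Xist was at 53793 in WT replicate 2 and 18151 in WT replicate 3, which both lacked reads of Ddx3y and Kdm5d.

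Mef2b, a transcription factor gene known from germinal center B cells, was listed at 0 in all 3 libraries. Fen1, the flap endonuclease of DNA replication, was at 24.6, 29.9 and 29.8, while Pcna was at 5529, 4318 and 5648. The counting tool and annotation are not given, and their part in the values of Mef2b and Fen1 was not tested. Of the deposited gene names, 27 are 5-digit date serials, 18 of them with a WT mean of at least 10, and these genes could not be named.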
